A study of Rattus norvegicus with 12 samples.

Results

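The messenger RNAs of 55 genes named as translation initiation factors, or as their regulators, were followed in the prefrontal cortex of 15-day-old female Sprague-Dawley rats. The set comprised every gene whose array name begins with Eif1 to Eif6, with Eif4ebp1 left out, and it was measured by 71 of the 30367 probes. Of these, 68 probes for 53 genes were bright enough to be tested, among 21533 probes for 18688 genes. Each of 3 groups held 4 animals. The betamethasone with ketamine group, called the ketamine group below, came from dams given 2 injections of the synthetic corticosteroid betamethasone (0.4 mg/kg each) on gestational day 15, and its pups received ketamine (35 mg/kg), an NMDA receptor blocker, on postnatal day 14. The betamethasone group had the same dams' treatment and saline on postnatal day 14. Controls had saline at both times. Per the labels, the animals treated on postnatal day 14 were ones showing infantile spasms, but the labels do not tell in which groups spasms were seen, and 1 label field gives another age than the remaining ones. No litter is given, so animals of a group may be littermates. The p-values measure the spread between these animals together with that between the 2 arrays that carried each group. The tissue was whole cortex, in which fewer cells of a type and less RNA per cell cannot be told apart.

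Translation of most messages begins when eIF4F binds the cap at the 5′ end: eIF4E holds the cap, eIF4G is the scaffold and eIF4A unwinds the RNA. The small ribosomal subunit, loaded with eIF3, eIF1, eIF1A, eIF5 and a complex of eIF2, GTP and initiator tRNA, then scans to the start codon. eIF2 is recharged by eIF2B, a step that kinases of eIF2 block under stress, and 4E-binding proteins withhold eIF4E; in the brain both controls are known for their part in synaptic plasticity and memory.

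Every array carried 2 animals of 1 group, replicates 1 and 2 or replicates 3 and 4, each in its own dye. The control arrays lay on 1 slide and both other groups on the other, so in a comparison with control an effect of the slide cannot be told apart from one of the treatment. Between 71.4% and 81.5% of all spots were well above background in a sample, against 97.4% to 98.7% of the 152 member spots, and no member spot was saturated. Samples of 1 group correlated at 0.974 to 0.998 over all probes. On the array of ketamine replicates 1 and 2, 4.75% of spots lay in areas that departed from the other arrays, with a median departure of −0.65 on the log2 scale, against 0.0210% to 1.05% on the other 5 arrays. Neuronal markers were well above background in all 12 samples (7 of 7 on the array). Of 3 liver markers 1 was so in all 12 samples and 2 (Apoa1 and Fgb) in none. Of 3 muscle markers 1 was so in all and 1 (Ckm) in none, and of 4 choroid plexus markers 0 in all and 2 (Kl and Clic6) in none. The 2 tested choroid plexus markers differed from control by −0.97 and 0.11 in the ketamine group and by −1.04 and −0.03 in betamethasone. Oligodendrocyte markers were below control in both groups, 6 of 6 genes each, with a median log2 difference of −0.59 in the ketamine group and −0.70 in the betamethasone group. Their summed level was 14.94 to 16.08 in the ketamine group, 14.36 to 15.64 in the betamethasone group and 15.27 to 16.39 in controls, as the log2 of summed intensity. Microglial markers summed to 14.26 to 14.41, 14.25 to 14.30 and 13.93 to 14.27, and red cell markers to 12.11 to 17.25, 16.01 to 17.60 and 16.08 to 16.78, in the same order of groups. The 3 tested endothelial markers were above control in both groups, with a median log2 difference of 0.39 in the ketamine group and 0.19 in betamethasone. In the ketamine group against control 2 of these 3 had an unadjusted p under 0.05 (limma), where 14.3% of all genes did. Of the 6 oligodendrocyte markers 2 passed there, of the 5 microglial 2, of the 5 astrocyte 1 and of the 7 neuronal 0. The endothelial markers on the array summed to 12.63 to 13.08 in the ketamine group, 12.58 to 12.79 in betamethasone and 11.56 to 12.75 in control. The part of these cell markers in the differences given here was not tested.

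No initiation factor gene passed an adjusted p of 0.05 in any of the 3 comparisons (limma with the Benjamini-Hochberg method over all tested probes). The share of all genes that passed was 0.091% (0.0789% of probes) for the ketamine group against control, 0.246% (0.214% of probes) for betamethasone against control and 0 for the ketamine group against betamethasone. At an unadjusted p under 0.05, 9 of the 53 genes were higher and 4 lower in the ketamine group than in control, or 24.5%, where 14.3% of all genes passed, 9.88% higher and 4.38% lower. In betamethasone against control 4 were higher and 2 lower, or 11.3%, against 11.8% of all genes, 6.88% higher and 4.95% lower. In the ketamine group against betamethasone 1 was higher and none lower, or 1.89%, against 3.28% of all genes, 1.95% higher and 1.33% lower. The count of 13 for the ketamine group against control moved with the settings. It was 1 with array medians in place of quantiles, 4 of 52 with the array as replicate and 6 with only the 2 groups compared. Without the random block for the array it was 16, and without ketamine replicates 3 and 4 it was 22. The share of all genes at this threshold was not counted in these settings. Groups did not overlap for 6 higher and 4 lower genes in the ketamine group against control (18.9%, against 15.8% of all genes, 12.1% higher and 3.72% lower). They did not overlap for 7 higher and 6 lower genes in betamethasone against control (24.5%, against 18% of all genes, 10.6% higher and 7.37% lower). The ketamine group lay apart from betamethasone for 1 gene (1.89%, against 4.07% of all genes, 2.75% higher and 1.32% lower), the eIF3 subunit gene Eif3g, named after its values were seen, with a log2 difference of 0.24. Both comparisons with control share the 4 control animals, and both with betamethasone share the 4 betamethasone animals. Without the array of ketamine replicates 3 and 4, when that group rested on 1 array, 16 genes passed the adjusted threshold against control and 13 against betamethasone, while 3609 and 2692 of all 21497 probes tested did so. Leaving out any of the other 5 arrays gave at most 3 genes in a comparison, and that highest count came without control replicates 3 and 4, when 762 of 21598 probes passed in the ketamine group against control.

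The median log2 difference of the 53 genes was 0.08 in the ketamine group against control (0.07 over all genes), −0.003 in betamethasone against control (0.03 over all genes) and 0.05 in the ketamine group against betamethasone (0.05 over all genes). With array medians in place of quantiles these medians were −0.023, 0.24 and −0.37, against 0.02, 0.08 and −0.10 over all genes, so their signs turned in each comparison. As reported, above 0 lay 31, 24 and 34 of the 53 genes in these comparisons, or, over all genes, 63.8%, 56% and 62.9%. The median SE of a gene was 0.16 and the median half-width of its 95% interval 0.36, with 4 animals and 2 arrays a group limiting the precision. The interval stayed within 1 log2 unit of no difference for 49 genes in the ketamine group against control. It did so for 51 genes in betamethasone against control and for 49 in the ketamine group against betamethasone. The exceptions were Eif3c in all 3 comparisons, Eif4g1 in both comparisons with control, Eif3m in both with the ketamine group, and Eif1, Eif1b and Eif4ebp2 in 1 each.

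**Figure D1:**
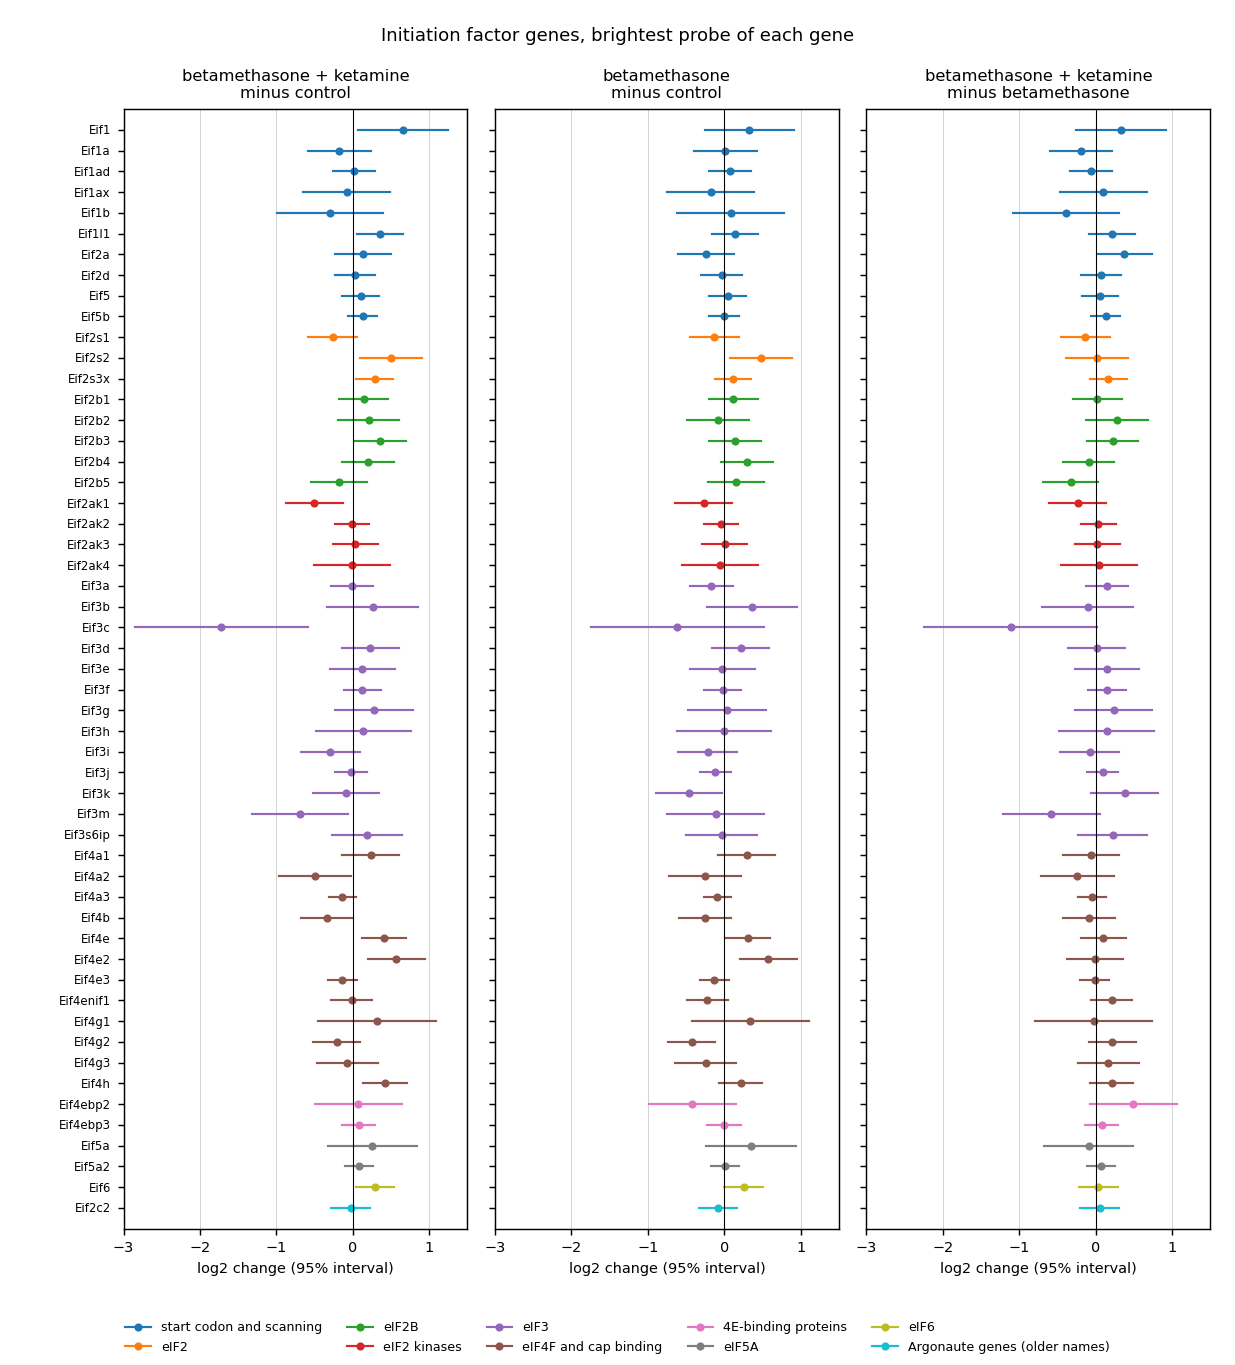
Log2 change (points) with its 95% interval (lines) of the brightest probe of each of the 53 tested genes, coloured by role, for the ketamine group against control (left), betamethasone against control (middle) and the ketamine group against betamethasone (right). Most intervals cross 0, the median half-width is 0.36, and Eif3c reaches farthest left with −1.72 in the left panel.

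The cap-binding side of initiation held the gene with the smallest p of the 53 in both comparisons with control, Eif4e2. It encodes 4EHP, a cap-binding relative of eIF4E that represses rather than starts translation. The probe spans more of the genome than its own length and is shown because its gene led the set:
Eif4e2: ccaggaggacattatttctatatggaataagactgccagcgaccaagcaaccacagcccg
It lies at chr9:86034139-86034290 on the plus strand of rn4. Its log2 intensity was 11.09, 10.94, 11.002 and 10.83 in the ketamine group, 11.04, 10.88, 11.07 and 10.91 in betamethasone and 10.79, 10.704, 10.09 and 9.99 in control. Every animal exposed to betamethasone lay above the highest control, and the control arrays themselves stood 0.70 apart. The log2 difference from control was 0.57 (SE 0.17, limma adjusted p = 0.242) in the ketamine group and 0.58 (SE 0.17, limma adjusted p = 0.227) in betamethasone. Without the array of control replicates 3 and 4 it was 0.22 and 0.23, and without that of control replicates 1 and 2 it was 0.92 and 0.93, in the same order.

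Eif4e, the cap-binding subunit of eIF4F itself, was read by 2 probes at different places in its message. The brighter one gave 11.07, 11.06, 10.87 and 11.002 in the ketamine group, 10.80, 10.94, 10.79 and 11.06 in betamethasone and 10.68, 10.65, 10.62 and 10.41 in control. No exposed animal overlapped with the controls. Relative to control the probe differed by 0.41 (SE 0.13, limma adjusted p = 0.273) in the ketamine group and by 0.31 (SE 0.13, limma adjusted p = 0.418) in betamethasone. The other probe differed by 0.07 and −0.14, so the higher level in betamethasone was seen with 1 of 2 probes.

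Eif4h, a cofactor that stimulates the helicase eIF4A, measured 15.23, 15.25, 14.88 and 14.92 in the ketamine group, 14.80, 14.87, 14.86 and 14.92 in betamethasone and 14.41, 14.69, 14.76 and 14.73 in control. Each exposed animal lay above the highest control, and ketamine replicates 1 and 2 lay highest. Its mean was above control by 0.42 (SE 0.13, limma adjusted p = 0.247) with ketamine and by 0.21 (SE 0.13, limma adjusted p = 0.564) without. Without the array of ketamine replicates 1 and 2 the first value was 0.25, below its 0.42 over both arrays.

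The helicase genes did not share a direction. Eif4a1 averaged 13.40 ± 0.15 in the ketamine group, 13.46 ± 0.12 in betamethasone and 13.17 ± 0.18 in control (SD, n = 4 each). Its second probe gave larger differences from control, 0.63 in the ketamine group and 0.49 in betamethasone, against 0.23 and 0.29 for the brighter one. Eif4a2, a form abundant in brain, measured 14.48, 13.86, 14.72 and 14.63 in the ketamine group, 14.67, 14.57, 14.66 and 14.74 in betamethasone and 15.07, 15.03, 14.93 and 14.62 in control. All but 1 of the exposed animals, which was ketamine replicate 2, lay between 14.48 and 14.74, and the lowest control was within that span. Relative to control Eif4a2 differed by −0.49 (SE 0.21, limma adjusted p = 0.343) in the ketamine group, and −0.24 without its replicates 1 and 2.

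The scaffold genes lay on both sides of 0. Eif4g1, the main eIF4G, had 13.49, 13.44, 13.56 and 13.46 in the ketamine group, 13.56, 13.34, 13.68 and 13.48 in betamethasone and 13.38, 12.39, 13.17 and 13.74 in control. Control replicate 2 was the lowest sample by far and control replicate 4 the highest, so the exposed animals lay inside the control range. Eif4g2, also called DAP5 or p97, is an eIF4G relative that lacks the eIF4E-binding part and serves initiation away from the cap. Its brightest probe gave 15.75, 15.69, 15.49 and 15.49 in the ketamine group, 15.23, 15.53, 15.23 and 15.57 in betamethasone and 15.83, 15.87, 15.80 and 15.77 in control. All exposed animals were below the lowest control, and the betamethasone animals split by dye, the Cy5 replicates 2 and 4 above the Cy3 replicates 1 and 3. Such a split was not particular to Eif4g2. In betamethasone the Cy5 animals were also higher for Eif2a, Eif2s2, Eif3e, the brighter Eif4e probe and 1 Eif3h probe. The Cy3 animals were higher for Eif4e2, Eif4g1 and Eif6. Every array held both dyes, and dye was a term in the fit. For this Eif4g2 probe the log2 difference from control was −0.21 (SE 0.14, limma adjusted p = 0.505) with ketamine and −0.43 (SE 0.14, limma adjusted p = 0.273) without. Each direction was kept in 29 of 30 alternative settings. The scanner's processed signals gave 0.12 with ketamine and −0.07 without, and array medians in place of quantiles gave −0.27 with ketamine and 0.10 without. The other tested probes were also below control, at −0.36 and −0.46 in the ketamine group and −0.36 and −0.55 in betamethasone.

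One more Eif4g2 probe, designed on the database entry AB256044, was well above background in 0 of 12 samples, while the probe for the RefSeq transcript that covers nearly the same stretch was so in 12 of 12. Both are printed because one is bright and the other silent although they overlap, and the capitals mark the 4 positions at which the shared stretch differs:
Eif4g2 RefSeq probe: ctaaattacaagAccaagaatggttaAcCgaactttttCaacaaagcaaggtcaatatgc
Eif4g2 AB256044 probe: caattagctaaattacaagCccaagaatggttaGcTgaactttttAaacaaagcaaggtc
They lie at chr1:168833093-168833152 and chr1:168833100-168833159 on the minus strand of rn4, offset by 7 bases, and share a stretch of 53 bases, so each also has 7 bases that the other lacks. The part of the offset and of the 4 substitutions in the silence was not tested. Counted from the 5′ end of the RefSeq probe, the AB256044 probe differs by A13C, A27G, C29T and C39A. The bright probe measured 10.53, 10.33, 11.11 and 10.79 in the ketamine group, 10.15, 10.95, 10.24 and 11.10 in betamethasone and 11.36, 10.65, 11.20 and 11.41 in control. The silent one stayed between 7.12 and 7.31 in the 12 samples, with no order between groups.

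The 4E-binding proteins block eIF4E until they are phosphorylated, and Eif4ebp2 is the main form in the brain. Its log2 intensity was 10.32, 10.09, 9.54 and 9.36 in the ketamine group, 9.16, 9.36, 9.25 and 9.58 in betamethasone and 9.41, 9.58, 9.93 and 10.11 in control. The controls and the ketamine animals each split by array, and all groups overlapped. The ketamine group was 0.49 (SE 0.26, limma adjusted p = 0.909) above betamethasone, and 0.12 above it without ketamine replicates 1 and 2. Eif4ebp3 differed by at most 0.08 in any comparison.

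**Figure D2:**
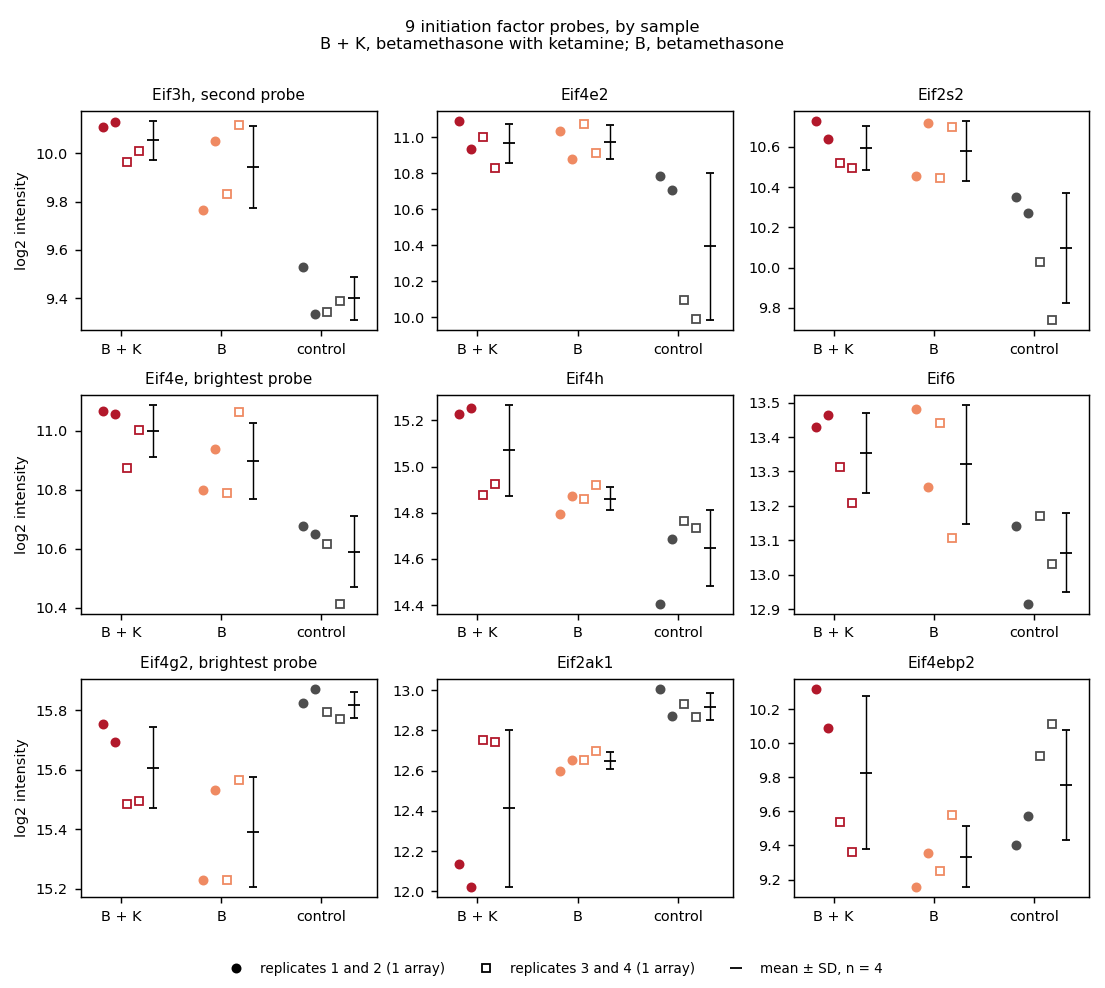
Log2 intensity of 9 initiation factor probes in each of the 12 samples, with the ketamine group (B + K) left, betamethasone (B) in the middle and control right; filled circles are replicates 1 and 2, open squares replicates 3 and 4, and bars the mean ± SD. The second Eif3h probe, Eif4e2, Eif2s2, Eif4e and Eif4h show all 8 exposed animals above the 4 controls, and Eif4g2 and Eif2ak1 show all 8 below. Over all genes, 15.8% did not overlap between the ketamine group and control, and 18% between betamethasone and control. The Eif2ak1 and Eif4ebp2 panels show ketamine replicates 1 and 2 away from replicates 3 and 4.

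eIF2 brings the initiator tRNA, and its subunits did not move together. Eif2s2, the beta subunit, was read by a probe on 1 stretch of chr3:145347612-145347671 on the minus strand of rn4, shown because the gene was the leading one of its complex:
Eif2s2: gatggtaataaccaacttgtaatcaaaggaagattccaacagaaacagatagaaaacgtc
It measured 10.73, 10.64, 10.52 and 10.49 in the ketamine group, 10.45, 10.72, 10.44 and 10.699 in betamethasone and 10.35, 10.27, 10.03 and 9.74 in control. All exposed animals were above the highest control. The log2 difference from control was 0.50 (SE 0.18, limma adjusted p = 0.312) in the ketamine group and 0.48 (SE 0.18, limma adjusted p = 0.354) in betamethasone, and it lay between 0.27 and 0.71 under the 30 alternative settings. Eif2s1, the alpha subunit on which the stress kinases act, measured 12.42, 12.41, 12.65 and 12.64 in the ketamine group, 12.70, 12.65, 12.67 and 12.63 in betamethasone and 13.00, 13.10, 12.61 and 12.47 in control. Control replicates 1 and 2 were the highest samples and replicates 3 and 4 lay within the range of the exposed animals, with a log2 difference from control of −0.27 with ketamine and −0.13 without. Eif2s3x, the gamma subunit, was read by 2 probes 1038 bases apart that differed in sign in betamethasone, at 0.12 and −0.34.

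The 4 kinases of eIF2 answer to heme, double-stranded RNA, the unfolded protein load and amino acid supply. Eif2ak1, the heme-regulated kinase, measured 12.14, 12.02, 12.75 and 12.74 in the ketamine group, 12.60, 12.65, 12.65 and 12.70 in betamethasone and 13.01, 12.87, 12.93 and 12.87 in control. Every exposed animal was below the lowest control, and ketamine replicates 1 and 2 were lowest. Eif2ak1 differed from control by −0.51 (SE 0.17, limma adjusted p = 0.285) in the ketamine group and by −0.27 (SE 0.17, limma adjusted p = 0.584) in betamethasone. Without ketamine replicates 1 and 2 the first value was −0.17, and with array medians in place of quantiles the second was 0.11. Eif2ak2, the kinase PKR, averaged 8.51 ± 0.06 in the ketamine group, 8.48 ± 0.07 in betamethasone and 8.52 ± 0.15 in control (SD, n = 4 each). Eif2ak3, the endoplasmic reticulum kinase PERK, averaged 9.14 ± 0.11 in the ketamine group, 9.11 ± 0.09 in betamethasone and 9.11 ± 0.27 in control (SD, n = 4 each), and Eif2ak4, the amino acid sensor GCN2, averaged 9.62 ± 0.08 in the ketamine group, 9.58 ± 0.27 in betamethasone and 9.63 ± 0.36 in control (SD, n = 4 each). All 3 overlapped between the groups, and their differences in any comparison were at most 0.05 on the log2 scale. The second, dimmer Eif2ak2 probe differed by −0.45 (SE 0.13, limma adjusted p = 0.244) between the ketamine group and control, and it was well above background in only 8 of 12 samples.

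eIF2B, which recharges eIF2, is encoded by 5 genes. Its catalytic subunit gene Eif2b5 measured 10.71, 10.77, 11.36 and 11.33 in the ketamine group, 11.46, 11.29, 11.45 and 11.30 in betamethasone and 11.39, 11.14, 11.20 and 11.16 in control. Ketamine replicates 1 and 2 were the lowest samples and replicates 3 and 4 lay among the betamethasone animals. The ketamine group differed from betamethasone by −0.33 (SE 0.17, limma adjusted p = 0.909), and −0.02 without replicates 1 and 2. The other subunits ranged from 0.14 to 0.36 in the ketamine group against control, led by Eif2b3, and from −0.08 to 0.30 in betamethasone against control, led by Eif2b4. Of 14 stress response genes, among them Atf4, Ddit3, Hspa5, Herpud1 and Xbp1, none passed the adjusted threshold. The list was drawn up for the response downstream of eIF2, but whether each gene depended on eIF2 here was not tested. At an unadjusted p under 0.05, 2 were higher and 1 lower in the ketamine group than in control (14.3% of all genes passed), 1 was higher in betamethasone than in control (11.8% of all genes), and 1 was lower in the ketamine group than in betamethasone (3.28% of all genes). The largest difference was that of Cebpb, a transcription factor, at −1.62 (SE 0.59, limma adjusted p = 0.310) in the ketamine group against control and −1.32 (SE 0.59, limma adjusted p = 0.909) against betamethasone. In the same list Chac1, a glutathione-degrading enzyme, differed from control by 0.39 in the ketamine group and 0.31 in betamethasone.

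eIF3, the large scaffold on the small ribosomal subunit, held 13 tested genes, of which 7 were above and 6 below control in the ketamine group and 3 above and 10 below in betamethasone. The probe with the smallest p of all 68 in both comparisons with control was the second of 3 probes for Eif3h, which encodes a regulatory subunit. This second probe measured 10.11, 10.13, 9.96 and 10.01 in the ketamine group, 9.77, 10.05, 9.83 and 10.12 in betamethasone and 9.53, 9.34, 9.34 and 9.39 in control. All 4 controls lay close together and below every exposed animal. The log2 difference from control was 0.65 (SE 0.14, limma adjusted p = 0.141) in the ketamine group and 0.54 (SE 0.14, limma adjusted p = 0.173) in betamethasone. The third probe differed by 0.27 and 0.13, and the brightest probe by 0.14 and −0.003, in the same order. In the brightest probe betamethasone replicates 1 and 2 (13.30 and 13.40) stood apart from replicates 3 and 4 (12.26 and 12.49).

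Eif3c and Eif3m, both genes of eIF3 subunits, had the most negative values in the ketamine group, and each rested on 1 spot of the array. Both spots lay in the departing area of the array of ketamine replicates 1 and 2. Their probes are shown because 1 array decided their values, at chr1:185691777-185691937 and chr3:90384821-90385819, both on the minus strand of rn4:
Eif3c: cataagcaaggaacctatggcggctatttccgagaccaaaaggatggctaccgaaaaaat
Eif3m: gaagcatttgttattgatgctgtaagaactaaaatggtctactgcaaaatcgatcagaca
Eif3c measured 11.86, 11.89, 14.17 and 14.16 in the ketamine group, 14.13, 14.07, 14.14 and 14.18 in betamethasone and 15.04, 14.63, 14.75 and 14.54 in control. Ketamine replicates 1 and 2 were over 2 log2 units below replicates 3 and 4, which lay among the betamethasone animals. The ketamine group differed by −1.72 (SE 0.51, limma adjusted p = 0.243) from control and by −1.11 (SE 0.51, limma adjusted p = 0.909) from betamethasone. Without replicates 1 and 2 these values were −0.58 and 0.04. The betamethasone animals were also below every control, with a log2 difference of −0.61 (SE 0.51, limma adjusted p = 0.708). That SE draws on the spread in all 3 groups. Replicates 1 and 2 minus replicates 3 and 4 gave −2.29 in the ketamine group, −0.06 in betamethasone and 0.19 in control. Without ketamine replicates 1 and 2 the −0.61 had a limma adjusted p of 0.031, and without ketamine replicates 3 and 4 one of 0.038. In those fits 492 of 21327 and 435 of 21497 probes passed, and the ketamine group had 1 array.

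Eif3m measured 11.38, 11.37, 12.65 and 12.52 in the ketamine group, 12.52, 12.57, 12.53 and 12.61 in betamethasone and 12.77, 12.71, 12.75 and 12.46 in control. The picture was the same, with ketamine replicates 1 and 2 alone at the low end. The ketamine group differed by −0.69 (SE 0.29, limma adjusted p = 0.333) from control, and by −0.58 from betamethasone. Without replicates 1 and 2 the values were −0.08 and 0.03. With the departing areas left out, neither gene could be tested.

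**Figure D3:**
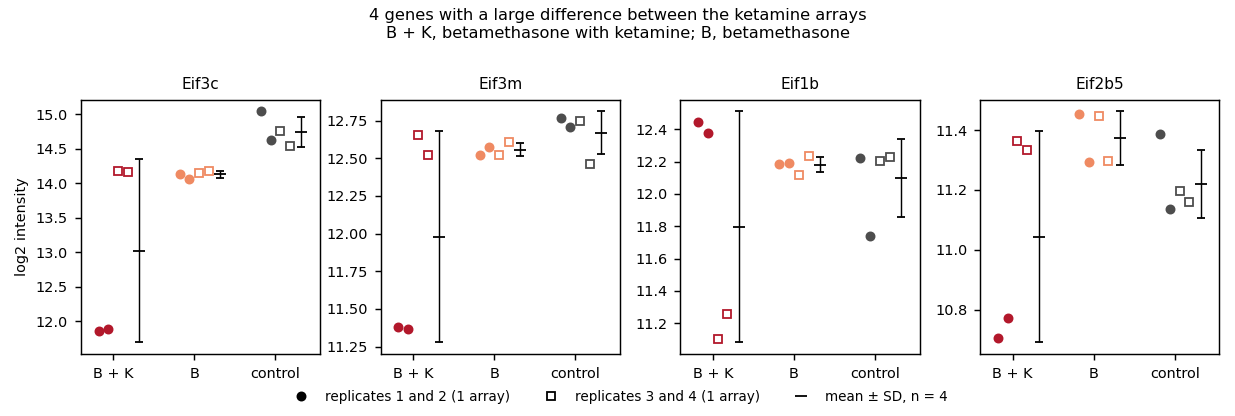
Log2 intensity of Eif3c, Eif3m, Eif1b and Eif2b5 in each of the 12 samples, with the ketamine group (B + K) left, betamethasone (B) in the middle and control right; filled circles are replicates 1 and 2, open squares replicates 3 and 4, and bars the mean ± SD. In the Eif3c, Eif3m and Eif2b5 panels ketamine replicates 1 and 2 lie lowest, and in the Eif1b panel replicates 3 and 4 do.

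Eif3k, the gene of a small eIF3 subunit, gave opposite answers at 2 places of its message. The upstream probe, at chr1:84085058-84085117 on the minus strand of rn4, is shown because it had the smallest p of the 68 probes between the ketamine and the betamethasone group:
Eif3k upstream probe: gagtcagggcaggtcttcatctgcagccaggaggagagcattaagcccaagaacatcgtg
It measured 13.30, 13.42, 12.62 and 12.74 in the ketamine group, 13.70, 13.51, 13.55 and 13.45 in betamethasone and 13.45, 13.59, 13.35 and 13.46 in control. All ketamine animals were below the lowest betamethasone animal, with a log2 difference of −0.53 (SE 0.19, limma adjusted p = 0.909). The ketamine animals split by array, with replicates 3 and 4 (12.62 and 12.74) well below replicates 1 and 2 (13.30 and 13.42). The brighter probe measured 13.996, 14.23, 13.58 and 13.70 in the ketamine group, 13.05, 13.50, 13.77 and 13.68 in betamethasone and 13.77, 14.07, 13.96 and 14.05 in control. There betamethasone replicate 1 was lowest and the ketamine group was 0.38 above betamethasone (SE 0.20). The eIF3 subunit gene Eif3e measured 10.99, 10.84, 10.43 and 10.53 in the ketamine group, 10.39, 10.71, 10.31 and 10.77 in betamethasone and 10.71, 10.69, 10.35 and 10.52 in control. Its groups overlapped, and its differences were at most 0.15.

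Factors of scanning and start codon choice comprised 10 tested genes. Eif1, which guards start codon choice, measured 14.58, 14.52, 13.92 and 13.95 in the ketamine group, 13.64, 13.96, 13.83 and 14.22 in betamethasone and 13.35, 13.21, 13.64 and 14.14 in control. Control replicate 4 stood above the other controls, and ketamine replicates 1 and 2 were the highest samples. The ketamine group differed from control by 0.66 (SE 0.27, limma adjusted p = 0.326), and by 0.35 without either the array of its replicates 1 and 2 or that of control replicates 1 and 2. Its close relative Eif1b measured 12.45, 12.38, 11.11 and 11.25 in the ketamine group, 12.19, 12.19, 12.12 and 12.23 in betamethasone and 12.22, 11.74, 12.21 and 12.23 in control. Here ketamine replicates 3 and 4 were the lowest samples, over 1 log2 unit below replicates 1 and 2.

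Eif2a, an alternative carrier of the initiator tRNA, was the gene with the smallest p between the ketamine and the betamethasone group. It measured 10.05, 10.01, 9.62 and 9.55 in the ketamine group, 9.29, 9.61, 9.25 and 9.60 in betamethasone and 9.61, 9.71, 9.62 and 9.76 in control. The groups overlapped, and ketamine replicates 1 and 2 were the highest samples. The betamethasone animals split by dye, with the Cy5 replicates 2 and 4 higher. The ketamine group was 0.37 (SE 0.16, limma adjusted p = 0.909) above betamethasone, and 0.15 above it without replicates 1 and 2. Eif5, which triggers GTP hydrolysis by eIF2, was read from 10 spots on each array and averaged 13.42 ± 0.10 in the ketamine group, 13.36 ± 0.06 in betamethasone and 13.32 ± 0.18 in control (SD, n = 4 each). The 3 differences of this probe were at most 0.10. A second, dimmer Eif5 probe measured 11.71, 11.77, 11.42 and 11.66 in the ketamine group, 11.09, 11.53, 11.26 and 11.74 in betamethasone and 11.36, 11.28, 10.88 and 11.21 in control. Its ketamine animals all lay above the controls, and the betamethasone animals overlapped with both. The second probe differed from control by 0.46 (SE 0.18, limma adjusted p = 0.318) in the ketamine group and by 0.23 in betamethasone, and the ketamine group was 0.24 above betamethasone.

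Eif5a and Eif5a2 carry the modified lysine hypusine and act mainly in elongation. Eif5a, also on 10 spots, measured 14.21, 14.22, 14.48 and 14.39 in the ketamine group, 14.42, 14.34, 14.49 and 14.42 in betamethasone and 14.21, 13.40, 14.22 and 14.44 in control. Control replicate 2 was the lowest sample, and the other 3 controls overlapped with the exposed animals. Eif5a2 averaged 7.68 ± 0.04 in the ketamine group, 7.61 ± 0.08 in betamethasone and 7.604 ± 0.04 in control (SD, n = 4 each) and was well above background in 10 of 12 samples. Eif6, which keeps the large ribosomal subunit apart until it is mature, measured 13.43, 13.46, 13.31 and 13.21 in the ketamine group, 13.48, 13.25, 13.44 and 13.11 in betamethasone and 13.14, 12.92, 13.17 and 13.03 in control. All ketamine animals were above the highest control, and betamethasone replicate 4 overlapped with the controls. The log2 difference from control was 0.29 (SE 0.11, limma adjusted p = 0.325) with ketamine and 0.26 (SE 0.11, limma adjusted p = 0.434) without.

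The 27 tested genes outside the rule for single description ranged from −0.33 (Eif4b) to 0.36 (Eif1l1) in the ketamine group against control, with 16 above and 11 below 0. In betamethasone against control they ranged from −0.25 (Eif4b) to 0.37 (Eif3b), with 10 above and 17 below. In the ketamine group against betamethasone they ranged from −0.19 (Eif1a) to 0.28 (Eif2b2), with 19 above and 8 below. Eif1l1 is named as an initiation factor in the files of the control samples alone, on the same probe. Eif2c2, Eif2c3 and Eif2c4 are older names of the Argonaute genes Ago2, Ago3 and Ago4, which act in small RNA silencing and are not initiation factors. Of these, Eif2c2 differed by at most 0.08 in any comparison, Eif2c3 was well above background in 0 of 12 samples and Eif2c4 in 4 of 12, so neither of the last 2 was tested.

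The 2 arrays of the ketamine group differed more than those of the betamethasone group. For the 53 genes the median difference between the array means was 0.24 in the ketamine group, 0.04 in betamethasone and 0.16 in control, and it exceeded 0.5 for 12, 1 and 8 genes (of 52 in control). Over all genes the medians were 0.20, 0.06 and 0.15, and 11.9%, 2.38% and 10.2% exceeded 0.5. Within an array the 2 animals differed by a median of 0.08, 0.11 and 0.14 for these genes. Among the genes beyond 0.5 in the ketamine group, Eif3c and Eif3m had their spot in the departing area of the array.

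**Figure D4:**
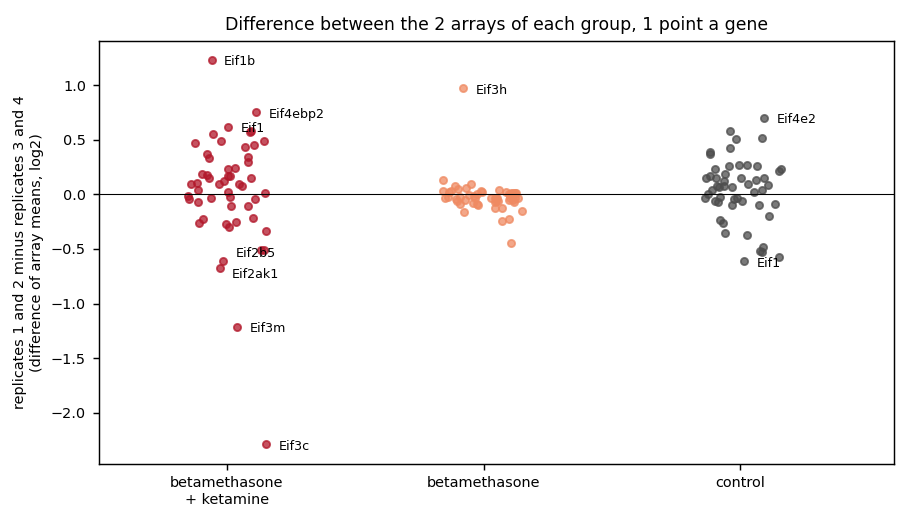
Difference between the mean log2 intensity of replicates 1 and 2 (1 array) and that of replicates 3 and 4 (the other array) for each initiation factor gene, in the ketamine group (left), betamethasone (middle) and control (right). The median size is 0.24, 0.04 and 0.16 in that order, with Eif3c, Eif3m and Eif1b farthest from 0 in the ketamine group and Eif3h in betamethasone.

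Probes of 1 gene often disagreed. Of 13 genes with over 1 tested probe, all probes had the same sign in 9 genes for the ketamine group against control, in 7 for betamethasone against control and in 7 for the ketamine group against betamethasone. The median spread between the probes of a gene was 0.35, 0.19 and 0.18 in the same order. The median SE of 0.16 is that of 1 probe and not of a difference between probes. Whether the probes of a gene differed beyond their error was not tested. Eif4b, a helicase cofactor, had the widest spread in betamethasone against control: its upstream probe was 0.40 above control (SE 0.12, limma adjusted p = 0.246) and its downstream probe 0.25 below. In the 12 genes whose probes could be ordered along the genome, the probe nearest the 5′ end was the higher one for 7 genes in the ketamine group against control and for 8 in betamethasone against control. In the ketamine group against betamethasone it was higher for 5 genes and lower for 7. For 9 genes on 10 spots each, the single spots of 1 sample spread by a median SD of 0.14 to 0.26. The SD between animals of a group was 0.10 to 0.28, and there each animal's value was an average over its spots. The SD of single spots is not the error of such an average, so these ranges cannot be set against each other.

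**Figure D5:**
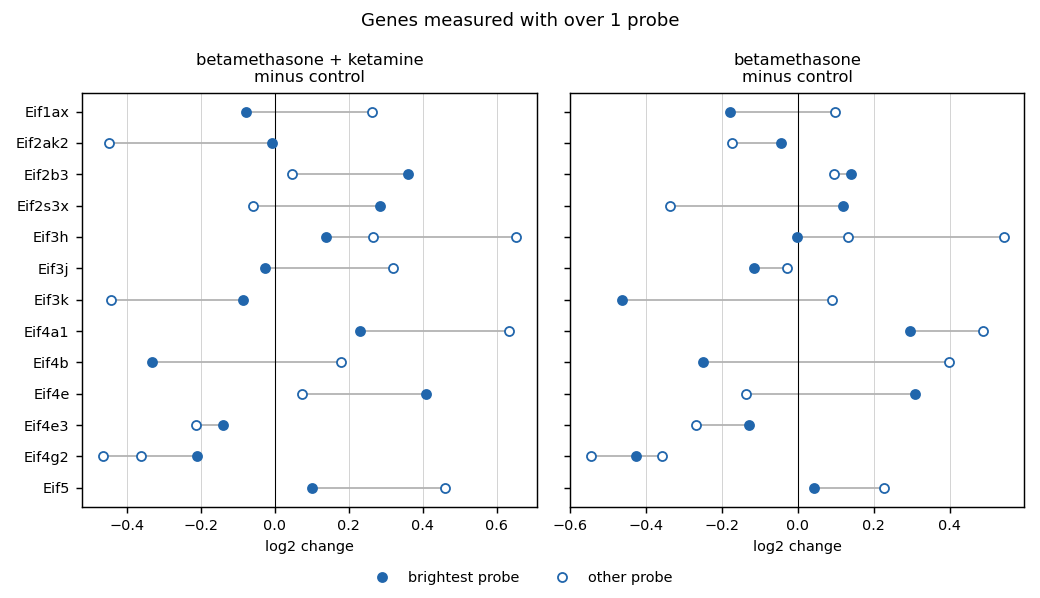
Log2 change of every tested probe of the 13 genes with over 1 probe, for the ketamine group against control (left) and betamethasone against control (right); filled points are the brightest probe and open points the others, joined by a line. The line crosses 0 in 4 genes on the left and 6 on the right, and Eif4b spans −0.25 to 0.40 on the right.

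Other genes of translation, from elongation and release factors to poly(A)-binding and eIF4E-regulating proteins, were measured as a list of 27, of which 26 were tested and none passed the adjusted threshold. At an unadjusted p under 0.05, 4 were higher and 2 lower in the ketamine group than in control (14.3% of all genes passed). In betamethasone against control 3 were higher and 3 lower (11.8% of all genes), and in the ketamine group against betamethasone 1 was higher and 1 lower (3.28% of all genes). Ncbp2, of the nuclear cap-binding complex, was at 0.72 (SE 0.16, limma adjusted p = 0.141) in the ketamine group and 0.48 (SE 0.16, adjusted p = 0.276) in betamethasone. Eif4ebp1, the 4E-binding protein gene not counted among the members, was at 0.56 and 0.62.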

How the data were processed

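RNA from 12 animals was hybridised in pairs to 6 Agilent 2-colour arrays. Per the file headers, the deposited scanner files hold spot intensity values from Feature Extraction 11.5.1.1 for the control slide and 11.0.1.1 for the other slide, while the submitters' processing notes name 10.7.3.1. Coordinates are rn4, per the file headers. The authors also deposited a table of ratio values, each a background-subtracted median signal over its column median, as its comparison with the scanner files showed. Its control columns 1 and 2 held what the scanner files give for control animals 3 and 4, and vice versa, so these ratios served as an alternative only.

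From the deposited intensity values, background was corrected by normexp with an offset of 50, dyes were adjusted within arrays by loess and arrays by Aquantile, and log2 values were taken per channel, with spots of a probe averaged and outlier spots left out. Probes that 3 or more of the 4 animals of any group showed well above background, with 3 or more values per group, were tested with limma 3.58.1 (R 4.3.3, statmod 1.5.0), with dye as a term and the array as a random block (correlation 0.5549). P-values were adjusted by the Benjamini-Hochberg method over 21533 probes, with a threshold of 0.05. A gene was represented by its brightest probe. The number of arrays limits the precision. The fit was also run on data simulated from its own model. Those data held no slide difference and no departing areas, so they could not check how the method copes with either. The rule for single description was the 6 genes with the smallest p in each comparison, any gene past the threshold, and a core set of initiation factors. Outside that rule, Eif3h, Eif3g, Eif4b, Eif2s3x, Eif2b3, Eif2b4, Ncbp2, Cebpb and Chac1 were described after their values were seen. So were the upstream Eif3k probe and the dimmer Eif2ak2 and Eif5 probes. Members and gene lists were chosen with earlier results of these data known. Replicate numbers did not pair the samples: of 12 pairs with the same number, none correlated over 0.1. Older gene names were updated through RefSeq tables.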

Additional observations from a re-analysis of the deposited data

Results flagged for a closer look

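Of 78 groups of 4 samples examined for the named genes, 2 held a sample far from the other 3. Such a distance, beyond Dixon's critical value for 4 samples, is met by chance in about 1 of 20 groups. Eif1b, a relative of the start codon factor Eif1, measured 11.74 in control replicate 2, against 12.21 to 12.23 in the other controls, a gap of 0.96 of the range. Eif2ak4, the amino acid sensing kinase of eIF2, measured 9.182 in betamethasone replicate 1, against 9.70 to 9.73 in the other betamethasone animals, a gap of 0.934 of the range.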

How the results depend on the processing

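No initiation factor gene passed an adjusted p of 0.05 as reported (limma), and the following alternatives gave other counts. Without the random block for the array, 2 genes passed in the ketamine group against control and 2 in betamethasone against control (862 and 1033 of 21533 probes), and from the scanner's processed signals 1 passed in the ketamine group against control (157 probes). Without the array of ketamine replicates 1 and 2, the counts were 1 in the ketamine group against control, 2 in betamethasone against control and 1 in the ketamine group against betamethasone (161, 492 and 74 of 21327 probes). Without that of ketamine replicates 3 and 4 they were 16, 2 and 13 in this order (3609, 435 and 2692 of 21497 probes). Without the array of control replicates 1 and 2, 2 genes passed in the ketamine group against control and 1 in betamethasone against control (473 and 576 of 21635 probes), and without that of control replicates 3 and 4, 3 and 1 (762 and 700 of 21598 probes). Each of these array settings leaves a group with 1 array; apart from that, the cause was not tested. Leaving out any 1 sample gave 0 to 0 genes.

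The median log2 difference of the 53 genes moved with the scaling. With array medians in place of quantiles it was −0.023 in the ketamine group against control, 0.24 in betamethasone against control and −0.37 in the ketamine group against betamethasone, where all genes had medians of 0.02, 0.08 and −0.10. From processed signals it was 0.064 in betamethasone against control, where all genes had 0.10. Without ketamine replicates 3 and 4 it was 0.15 in the ketamine group against control and 0.11 against betamethasone, where all genes had 0.12 and 0.10. Without control replicates 1 and 2 it was 0.052 in betamethasone against control, where all genes had 0.012. Without control replicates 3 and 4 it was 0.016 in the ketamine group and −0.083 in betamethasone, where all genes had 0.070 and 0.027. Leaving out 1 sample gave medians of 0.021 to 0.084 in the ketamine group against control, −0.047 to 0.020 in betamethasone against control and 0.029 to 0.079 in the ketamine group against betamethasone. The cause of these shifts was not tested. With replicate number as a block, 0 genes passed in each comparison. In the ketamine group against control, betamethasone against control and the ketamine group against betamethasone, 12, 4 and 1 of 53 had an unadjusted p under 0.05 (limma). The share of all genes at this threshold was not counted with that block, so these counts cannot be set against it. The medians were 0.08, −0.003 and 0.05, where all genes had 0.07, 0.03 and 0.05.

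Of 2328 values of single genes under 30 alternatives, 2213 kept their direction, 115 did not and 22 passed the threshold. With areas of departing spots left out, Eif3c and Eif3m gave no value. Over all probes, as reported, 17 passed in the ketamine group against control and 46 in betamethasone against control, and with array medians 0 and 0.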
